A study of Drosophila melanogaster with 16 samples.

Results

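Intergenic open chromatin of the adult fat body was described from ATAC-seq of Drosophila melanogaster. The members are all peaks whose midpoint lay outside every annotated gene and more than 500 bp from either end of any gene, whatever their change with temperature. There were 383 of them among the 8069 peaks of the authors' deposited table, or 4.75%. The other peaks were 5077 gene-end peaks, within 500 bp of a gene's start or end, and 2609 gene-body peaks. All 383 were 401 bp wide.

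Females of the genotype w1118, unmated, were sorted within 8 hours of eclosion and then held for 25 days at 25 °C or at 11 °C, the cold condition in which adult females enter diapause, an arrest of reproduction. In both conditions the vapour of 10 µL of 99% ethanol, or of the same ethanol with 39.4 mM S-methoprene, was given every 2 days. S-methoprene is a synthetic analog of juvenile hormone. This makes 4 groups of 4 libraries (25 °C with ethanol, 25 °C with S-methoprene, 11 °C with ethanol, 11 °C with S-methoprene), each library from the pooled fat bodies of 25 flies. Flies were kept only when their ovaries looked as the condition was meant to make them, regressed at 11 °C with ethanol and large in the other 3 groups, and regressed ovaries therefore occurred at 11 °C alone. In the deposited overall means the 25 °C and the 11 °C libraries carry weights of 3 to 4, although the labels list 8 per temperature. Which libraries entered, and with which vapour, is not stated.

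In ATAC-seq a transposase cuts accessible DNA, so that more reads in a stretch mean that it is more open. Open chromatin between genes commonly holds enhancers, insulators or the promoters of transcripts that the annotation lacks, and accessibility alone does not tell these apart. Enhancers in the fly often lie in the long gaps beside developmental regulators, and gene-poor pericentromeric DNA consists largely of repeats packed as heterochromatin. The fat body stores lipid and glycogen and secretes yolk proteins, storage proteins and immune peptides.

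Values below are the authors' mean normalised reads per peak at each temperature, their fitted log2 fold change (25 °C over 11 °C, so that negative values are higher at 11 °C) and its false discovery rate (FDR) over all peaks. A peak is called at an FDR under 0.05. The tissue is a bulk sample, in which a change in the share of a cell type and a change within its cells cannot be told apart. Of the marker genes for fat body, 9 of 11 had a peak within 1000 bp or inside the gene, as did 9 of 9 for oenocytes, 6 of 20 for muscle, 7 of 14 for hemocytes, 8 of 23 for ovary, 7 of 15 for neurons and 5 of 12 for gut and trachea. Among these genes a peak was called towards 25 °C at 7 for oenocytes, 3 for fat body, 2 each for muscle, hemocytes and ovary, and 1 each for neurons and for gut and trachea. Towards 11 °C it was 2, 1, 0, 4, 1, 3 and 1 in the order oenocytes, fat body, muscle, hemocytes, ovary, neurons, gut and trachea. These are counts of genes, and no share over all genes stands beside them. Of all 8069 peaks 12.2% were called towards 25 °C and 10.0% towards 11 °C, and a gene may have several peaks. The part of cell mixture in the results was not tested.

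Intergenic peaks held fewer reads than the table as a whole. Their median was 90.2 normalised reads with quartiles of 48.9 and 165, against 163 over all peaks, 177 at gene ends and 140 in gene bodies. More than 1 in 2 of them, 201 or 52.5%, fell into the lowest quartile of all peaks by concentration, and 50 into the highest. At the low end, 36 members had a mean concentration under 3 (log2), out of 64 such peaks in the whole table, and 12 were listed at 0. The strongest member held 707 reads.

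Of the 383 intergenic peaks 90 were called towards 25 °C, 60 towards 11 °C, and 233 in neither direction. That is 39.2% called, where the background over all 8069 peaks is 22.2%, with 15.3% at gene ends and 33.0% in gene bodies. By direction it is 23.5% higher at 25 °C against a background of 12.2%, and 15.7% higher at 11 °C against a background of 10.0%. By concentration quartile, from lowest to highest, 38.8%, 43.2%, 33.3% and 40.0% of the intergenic peaks were called. For gene-body peaks of the same quartiles it was 38.8%, 39.1%, 28.9% and 22.6%, so in the lowest quartile these classes had the same share. These shares describe 1 table, and no test of the difference between the classes of peaks was made, since peaks are not replicates. The median called member had a fitted change of 1.57-fold at 25 °C or 1.47-fold at 11 °C. Called changes of at least 1.5-fold numbered 54 towards 25 °C and 29 towards 11 °C among the 383 members. The backgrounds are 402 and 239 of all 8069 peaks, or 4.98% and 2.96%, with 7.94% in either direction. Among the 2609 gene-body peaks there were 209 and 118. At 2-fold or more the called members numbered 19 and 7 of the 383. The backgrounds are 124 and 51 of all 8069 peaks, or 1.54% and 0.632%, with 2.17% in either direction. Gene-body peaks counted 58 and 29 of 2609. Over all 383 members the concentration at 25 °C minus that at 11 °C had a median of 0.02 (log2) with quartiles of -0.27 and 0.43, beside a median of -0.02 with quartiles of -0.17 and 0.16 over all peaks. The centre of the members was thus near 0, and their spread was wider than that of the table. Gene-body peaks had quartiles of -0.21 and 0.28. Spread also went with level. In the lowest concentration quartile the median size of the difference was 0.43 for members, 0.36 in gene bodies and 0.28 over all peaks. Without that quartile it was 0.25, 0.20 and 0.15.

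**Figure D1:**
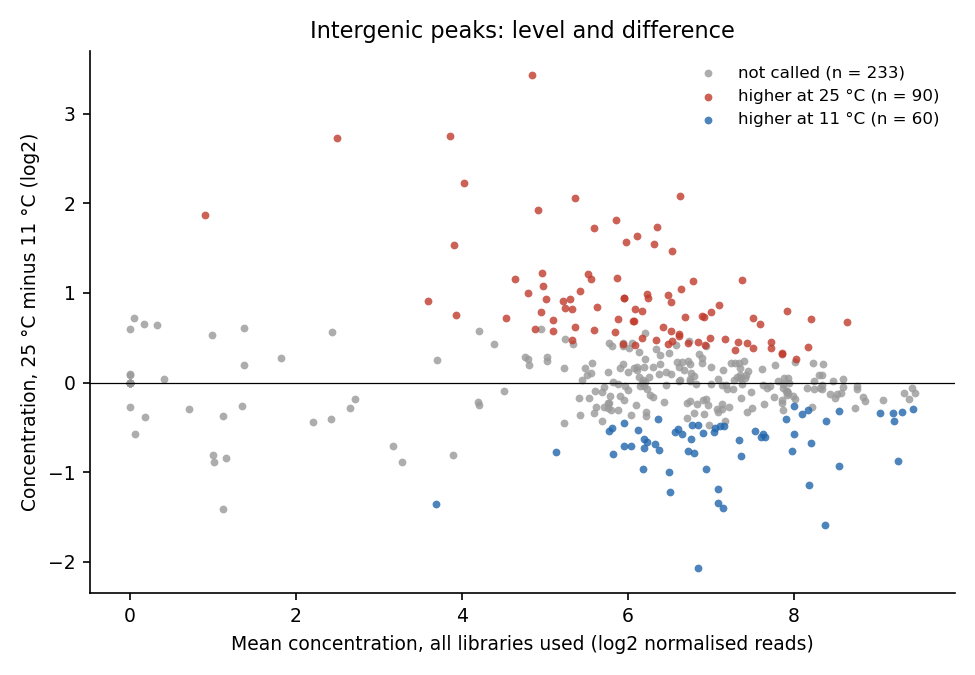
Each point is 1 of the 383 intergenic peaks, with the mean concentration over all libraries used on the x axis and the concentration at 25 °C minus that at 11 °C on the y axis, both in log2 normalised reads. The 90 peaks called higher at 25 °C reach differences over 3 and lie mostly at low concentration, and the 60 called higher at 11 °C reach into the highest concentrations.

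The direction of the calls went with the number of reads. Among the 201 members of the lowest concentration quartile 59 were higher at 25 °C and 19 at 11 °C, while among the 50 of the highest quartile 4 were higher at 25 °C and 16 at 11 °C. Without the lowest quartile the majority turned, with 31 higher at 25 °C and 41 at 11 °C among 182 members. The whole table showed the same order, with 489 and 157 of 2017 peaks in its lowest quartile and 78 and 257 of 2018 in its highest. Without its lowest quartile the majority turned there as well, with 492 and 651 of 6052 peaks. Members more open at 25 °C had a median of 70.5 reads, those more open at 11 °C one of 132, and uncalled members one of 86.7.

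Distance from genes went with both level and direction. From the nearest gene end the members lay a median of 2048 bp away, with quartiles of 942 and 5885 bp and a maximum of 443843 bp. Members more open at 25 °C had a median of 2977 bp, uncalled ones of 1822 bp and members more open at 11 °C of 1772 bp. Among the 271 members up to 5000 bp from a gene end 58 were higher at 25 °C and 52 at 11 °C. For the 112 farther ones the counts were 32 and 8. Median reads were 115 at up to 1000 bp and 39.2 beyond 10000 bp, so weak and far members are in part the same. Leaving out the lowest concentration quartile, the nearer members counted 21 higher at 25 °C and 37 at 11 °C of 148, and the farther ones 10 and 4 of 34. Within the lowest quartile the counts were 37 and 15 of 123 nearer members, and 22 and 4 of 78 farther ones. Near and far members of the stronger quartiles thus also differed in the direction of their calls, but this split does not match them in level. Of the 148 nearer ones 43 were in the highest quartile, with 3 calls towards 25 °C and 15 towards 11 °C. Of the 34 farther ones 7 were, with 1 call each way. Whether distance and direction go together apart from level was not tested.

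**Figure D2:**
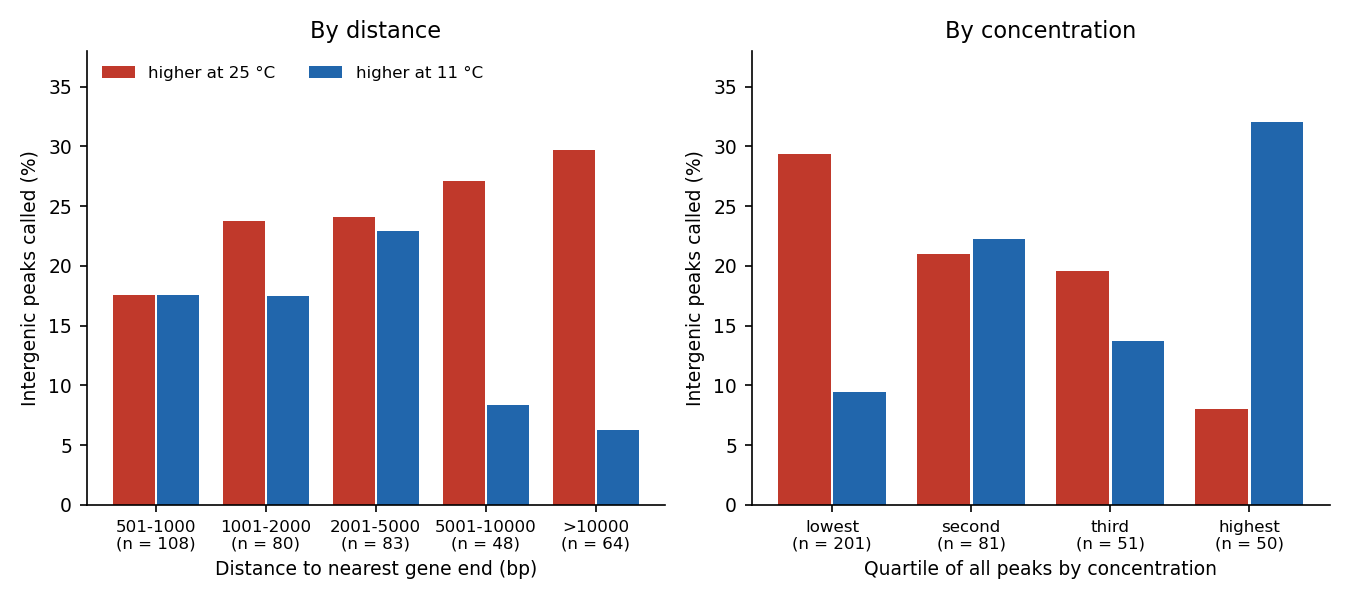
Bars give the percentage of intergenic peaks called higher at 25 °C or at 11 °C, on the left by distance to the nearest gene end and on the right by quartile of all 8069 peaks by mean concentration, with the number of peaks under each pair. Calls higher at 11 °C make up 17.6% of the members up to 1000 bp away and 6.25% of those beyond 10000 bp, and 9.45% of the lowest but 32.0% of the highest concentration quartile.

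Gene-poor stretches held a small share of the members, but 7 of the 10 largest increases at 25 °C and 2 of the 10 largest at 11 °C. The gap between the flanking genes was over 50000 bp, or had a gene on 1 side only, for 58 members, of which 21 were higher at 25 °C and 3 at 11 °C. In the other 325 members the counts were 69 and 57. These are 36.2% and 5.17% of the 58, and 21.2% and 17.5% of the 325, where the backgrounds over all peaks are 12.2% and 10.0%. Of the 58, 45 fell into the lowest concentration quartile, with 17 and 2 calls, and the 13 stronger ones had 4 and 1. In the other gaps the counts were 42 and 17 of 156 in the lowest quartile, and 27 and 40 of 169 stronger ones. The part of level in this contrast was not tested. Chromosome arm 3L carried 120 members, 7.34% of its peaks, against 84 on 2R, 64 on 3R, 52 on 2L and 49 on X, where the shares ran from 3.41% on X to 5.09% on 2R. Called towards 25 °C and 11 °C were 27.4% and 9.52% of the members on 2R, beside 12.4% and 9.95% of all peaks there. On X the shares were 22.4% and 24.5%, beside 11.6% in each direction over all its peaks. The shares called in either direction were 38.3% on 3L, 42.2% on 3R and 40.4% on 2L, beside 22.2%, 21.7% and 21.5% of all peaks of those arms. Chromosome 4 had 8 members, of which 2 were called towards 25 °C and 0 towards 11 °C, or 25.0% and 0%, close to the 22.2% and 3.70% of its 81 peaks.

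The largest increases at 25 °C were found at weak peaks in gene-poor DNA. Of the 10 most increased called members, 7 lay in gaps over 50000 bp or beyond the last annotated gene of their arm, and 9 belonged to the lowest concentration quartile. Both leading members stand in the same gap of 3R, between CG41099 and CG42402. In the authors' deposited table the peak at chr3R:3975095-3975495 had 59.6 reads at 25 °C and 5.52 at 11 °C, a fitted log2 fold change of 3.26 (FDR 3.92e-31), and it lies 102644 bp from the nearest gene end. The peak at chr3R:4031729-4032129, by the authors' deposited table, had 28.3 and 4.22 reads and a log2 fold change of 2.46 (FDR 1.06e-13). With so few reads at 11 °C these ratios rest on small numbers, and the fitted values are smaller than the plain differences of 3.43 and 2.75.

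Further members of the 10 stood in gaps of this kind on X, 2R and 3L. Between the 2S ribosomal RNA gene 2SrRNA:CR45864 and mir-10404-5, a microRNA gene, on X lay a pair of members, both called towards 25 °C. For the stronger one the authors' deposited table gives 29.6 reads at 25 °C and 6.31 at 11 °C (chrX:23466650-23467050, log2 fold change 1.98, FDR 1.56e-10), and 0.70 (FDR 0.00647) for its partner, which falls outside the naming rule. Near the lower coordinate end of 2R a peak at chr2R:318771-319171, 7797 bp from DIP-lambda, a gene of the immunoglobulin family of neuronal surface proteins, had 11.0 and 1.66 reads in the authors' deposited table (log2 fold change 2.02, FDR 1.61e-06). On 2R at 954007 to 954407 and at 999844 to 1000244, in the gap after CG40498, the fitted changes were 1.62 (FDR 2.30e-19) and 1.59 (FDR 8.28e-08) by the authors' deposited table, with 79.9 reads at 25 °C and 24.2 at 11 °C for the first. On 3L the peak at chr3L:25196520-25196920 lay 5222 bp from the pseudogene CR40354 and 70549 bp from UQCR-11, a respiratory complex III gene. It had 73.0 reads at 25 °C and 17.5 at 11 °C in the authors' deposited table (log2 fold change 1.94, FDR 1.19e-16).

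The remaining 3 of the 10 stood in short gaps between annotated genes. The peak at chrX:19349176-19349576, 929 bp from nAChRalpha7, a nicotinic acetylcholine receptor subunit gene, and 3805 bp from kek5, a leucine-rich repeat membrane protein gene, was the strongest of the 10. Its reads were 176 at 25 °C and 41.6 at 11 °C in the authors' deposited table (log2 fold change 1.99, FDR 1.60e-26), and 1 of the 5 peaks of its flanking genes was also higher at 25 °C. At chr3R:29691087-29691487, between Obp99c, an odorant binding protein gene, and dmrt99B, a DM-domain transcription factor gene, the authors' deposited table gives 137 and 41.1 reads (log2 fold change 1.67, FDR 3.76e-22). The only peak of those genes themselves was not called. Between CG33668 and CG42340 on X the values were 52.3 and 13.7 reads in the authors' deposited table (log2 fold change 1.75, FDR 1.54e-15), while 1 of the 2 peaks of these genes was higher at 11 °C.

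The leading changes towards 11 °C were smaller and lay at stronger peaks, up to 3883 bp from a gene end in 9 of 10. Reads at 11 °C ran from 115 to 469 over the 10 most changed members in that direction, and 2 of the 10 belonged to the lowest concentration quartile. The leading member, at chr3R:29206957-29207357, lies 3024 bp from Cyt-c1L, a cytochrome c1-like gene of respiratory complex III, and had 40.4 reads at 25 °C and 170 at 11 °C in the authors' deposited table (fitted as 4.01-fold higher at 11 °C, FDR 3.26e-30). Its nearest other peak, 7010 bp away, was also higher at 11 °C, by a smaller change (-0.20 by the authors' deposited table). The 2 peaks of its flanking genes were not called. At chr3L:11350174-11350574, 631 bp from lncRNA:CR45251, the authors' deposited table lists 154 and 464 reads (log2 fold change -1.54, FDR 3.38e-42), the smallest FDR of any intergenic peak. On 3L, 3883 bp from CG11449, reads were 73.4 and 194 in the authors' deposited table (log2 fold change -1.37, FDR 1.70e-23). By the authors' deposited table its nearest other peak, 5633 bp away, was higher at 25 °C (0.35). The 1 peak of its flanking genes was higher at 25 °C too. For the member near lncRNA:CR45251 the nearest other peak, 15435 bp away, was higher at 11 °C (-0.89 by the authors' deposited table).

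Named genes with textbook roles stood beside several of the others. A peak 2976 bp from Tif-IA, which encodes an initiation factor of RNA polymerase I, had 71.8 reads at 25 °C and 183 at 11 °C in the authors' deposited table (2L, 22261036 to 22261436, log2 fold change -1.27, FDR 3.60e-13). The peak 722 bp from LanA, a laminin subunit gene of the basement membrane, had 51.7 and 121 reads there (3L, 6218544 to 6218944, log2 fold change -1.11, FDR 5.03e-11 in the authors' deposited table). No other peak lay at LanA or its neighbour CG33946. Members beside CG11629, CG14327, lncRNA:CR45404, l(3)80Fj and CG33798 completed the 10, and for them the authors' deposited table has fitted values of -1.13, -1.01, -0.91, -0.88 and -0.87.

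**Figure D3:**
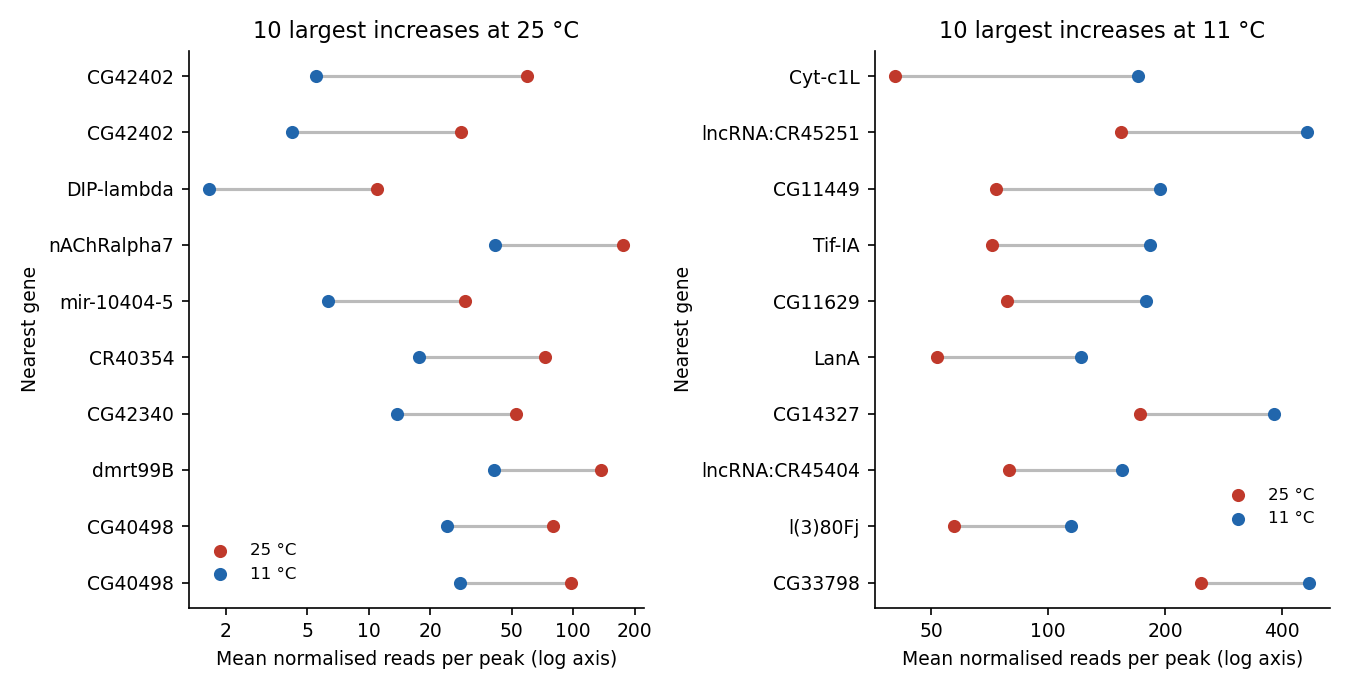
Mean normalised reads (log axis) at 25 °C and 11 °C for the 10 intergenic peaks with the largest called increase at 25 °C, on the left, and at 11 °C, on the right, each named by its nearest gene. On the left reads at 11 °C run from 1.66 to 41.6, and on the right from 115 to 469, so the sets differ in level as well as direction.

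Of the 10 strongest intergenic peaks 5 were called, all higher at 11 °C, and 9 had fitted log2 changes of at most 0.37 in size. Strong peaks in general leaned this way. In the highest concentration quartile 32.0% of members and 12.7% of all peaks were higher at 11 °C, beside 8.00% and 3.87% higher at 25 °C. At the head of the 10 stood a peak between nrv1 and nrv2, which encode beta subunits of the sodium-potassium ATPase, with 674 reads at 25 °C and 731 at 11 °C in the authors' deposited table (2L, 6787311 to 6787711, FDR 0.511). Next came a peak between Rilpl and futsch, a microtubule-associated protein gene of neurons, with 613 and 751 reads and a log2 fold change of -0.21 (FDR 0.0381) in the authors' deposited table. The exception in size was a peak 532 bp from disco, a zinc finger transcription factor gene, at chrX:16217082-16217482. There the authors' deposited table gives 412 reads at 25 °C and 755 at 11 °C, a log2 fold change of -0.83 (FDR 1.23e-10). Also called were a peak 4605 bp from lncRNA:CR44761 (-0.27), whose other flanking gene is Ppa, and a peak 7276 bp from lncRNA:CR44526 (-0.37), whose other flanking gene is SrpRbeta, by the authors' deposited table. The last of the 5, 551 bp from Atet, an ABC transporter gene, had -0.25 in the authors' deposited table. The other 4 lay near CG31668, lncRNA:CR45447, CG46429 and CG43245 and were not called, at -0.03, -0.12, -0.07 and -0.13 by the authors' deposited table.

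Of the 5 members farthest from any gene end 4 held under 7 reads at both temperatures and were not called, and the remaining peak is the 3R one with the largest increase. The most remote, on 3R at 123033 to 123433, lies 443843 bp from Myo81F, a myosin gene, and had 6.10 reads at 25 °C and 6.92 at 11 °C in the authors' deposited table (FDR 0.697). On 3L the peak 333306 bp from CG42598 had 2.41 and 1.66 reads in the authors' deposited table (FDR 0.655).

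The Y chromosome carried 6 of its 7 peaks between genes, although the flies were females, which lack it. Among these 6 a peak 2871 bp from Su(Ste):CR40820, a copy of the repeated Suppressor of Stellate genes, had 36.8 reads at 25 °C and 47.4 at 11 °C in the authors' deposited table. The other 5 held at most 5.98 reads at either temperature, and none of the 6 was called. Stellate, on X, shares sequence with these repeats, and the part of reads that map to several places was not tested.

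Most members stood alone, with 299 of the 383 more than 5000 bp from any other member. The 383 fell into 298 gaps between genes, of which 53 held at least 2 members and 18 at least 3. Within 5000 bp of the next member there were 24 pairs and 12 groups of 3, and no larger group. In 16 gaps at least 2 members were called, and there all calls were higher at 25 °C in 11 gaps, higher at 11 °C in 1 and in both directions in 4. The nearest other peak of any kind was 5783 bp away at the median, against 3609 bp over all peaks. For the 90 members higher at 25 °C it was itself higher at 25 °C in 31 cases and higher at 11 °C in 6, and for the 60 members higher at 11 °C the counts were 6 and 13. A neighbour of the same direction was thus found for 34.4% and 21.7% of them, beside 23.2% and 14.4% of all peaks called in those directions. Neighbours of the opposite direction made up 6.67% and 10.0%, beside 6.32% and 8.29% over all peaks. The nearest peak was itself a member for 40 of the 90 and 15 of the 60, so a pair of members can count from both sides. Members were also called more often than all peaks, 23.5% against 12.2% towards 25 °C and 15.7% against 10.0% towards 11 °C. Neither point was allowed for in these shares. For the 233 uncalled members the nearest peak was higher at 25 °C in 32 cases and at 11 °C in 22.

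In a gap beside a storage protein gene all members were called. Lsp1gamma encodes a larval serum protein that the fat body secretes and stores, and it lies near the tip of 3L. Each of the 3 peaks in the gap between CG43149 and Lsp1gamma was called towards 25 °C. The first lies 776 bp from CG43149 and 10903 bp from Lsp1gamma, and the second 3190 and 8489 bp. CG43149 is thus the nearest gene of both. By the authors' deposited table reads were 90.2 at 25 °C and 51.1 at 11 °C at chr3L:55327-55727 (log2 fold change 0.66, FDR 0.00122). At chr3L:57741-58141 the authors' deposited table has 125 and 67.1 reads (0.80, FDR 2.46e-08), and at chr3L:64820-65220 it has 53.3 and 30.2 (0.63, FDR 0.0017). The peak before them, between mthl8 and CG43149, had 46.4 and 19.9 reads and 1.10 (FDR 6.26e-08) in the authors' deposited table, whereas the next one out, 10756 bp farther, had 391 and 381 reads and was not called (FDR 0.882). None of the flanking genes Lsp1gamma and CG43149 had a peak of its own.

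Other clusters held called and uncalled members side by side. Of the 4 peaks between CG9932 and lncRNA:CR44197 on 2L the outer ones were called, with 380 and 233 reads at the first and 185 and 101 at the last (0.67 and 0.79 on the log2 scale by the authors' deposited table), and the 2 between them were not. Between CG5290 and lncRNA:CR43174 on 3L 3 of 4 rose towards 25 °C, by 0.28 to 0.59 on the log2 scale in the authors' deposited table. Between unc-4 and OdsH, neighbouring homeobox genes on X, the authors' deposited table gives 0.70 and 0.34 for the called peaks and 0.04 (FDR 0.783) for the third. The gap of 245766 bp after Pld, the phospholipase D gene, held 7 members, the most of any gap. Of these the 3 called ones were higher at 25 °C (0.38 to 0.62 in the authors' deposited table), and all 7 had more reads at 25 °C. By contrast, of the 6 members between Su(z)2, a Polycomb group gene, and CG13323 only the peak 1429 bp from Su(z)2 was called, higher at 11 °C with -0.22 (FDR 0.0199) in the authors' deposited table. These gaps, apart from groups of 3 within 5000 bp, were picked after their values were seen.

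**Figure D4:**
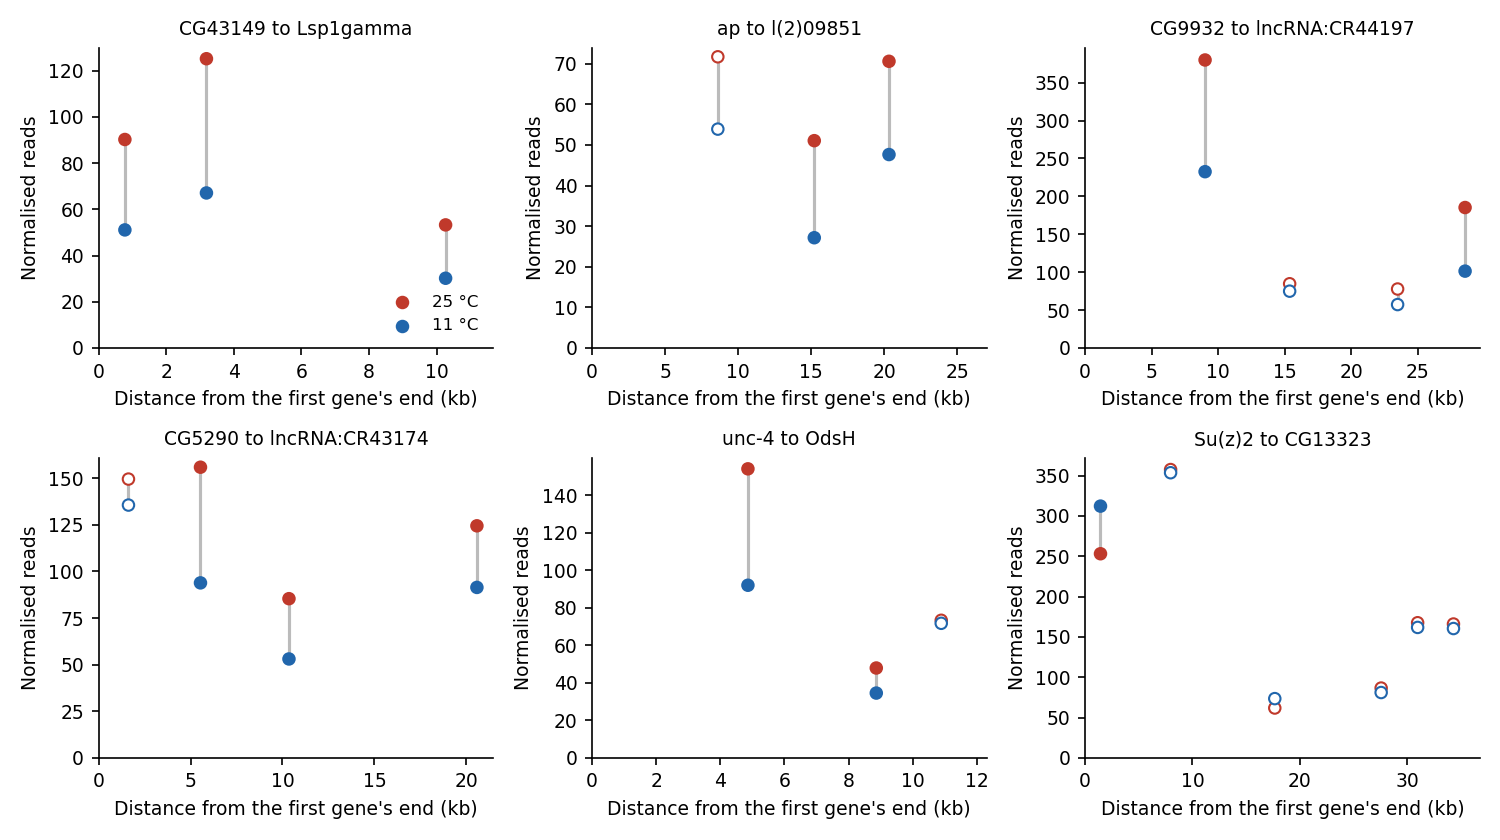
Each panel is a gap between a pair of genes, with the distance of each intergenic peak from the end of the first gene in kb on the x axis and mean normalised reads on the y axis, red for 25 °C and blue for 11 °C. Filled points are called peaks and open points are not. All 3 peaks between CG43149 and Lsp1gamma are filled and higher at 25 °C, while 5 of the 6 after Su(z)2 are open.

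Groups of 3 went in mixed directions elsewhere. Those between Gbs-70E and asRNA:CR44843, between lncRNA:CR46006 and lncRNA:CR45245, and after Su(z)2 held 0 called peaks, as did the group on Y. Around lncRNA:CR44720, between scyl, a gene of the hypoxia response that restrains TOR, and lncRNA:CR45404, the authors' deposited table lists -0.33 (FDR 0.00229) and 0.88 (FDR 2.26e-06), with an uncalled member between them. A gene-end peak, 2200 bp from the first member and 1613 bp from the uncalled one, was higher at 25 °C (1.12 by the authors' deposited table). Between lncRNA:CR44526 and SrpRbeta, peaks called in opposite directions stood 4660 bp apart, at -0.37 and 0.23 by the authors' deposited table. After tRNA:Ile-TAT-1-2 the middle peak alone was called, with 102 reads at 25 °C and 34.2 at 11 °C (log2 fold change 1.35, FDR 2.59e-07 in the authors' deposited table). The group between ppk11, a sodium channel subunit gene, and IP3K1 had 1 called peak (-0.41, FDR 0.00237), and that between Teh1 and CG46467 had 1 as well (0.19, FDR 0.0432), both in the authors' deposited table.

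Genes flanking the members were protein-coding on both sides for 187 of the 383, and 149 had a long noncoding RNA gene on at least 1 side. Counts were 43 higher at 25 °C and 33 at 11 °C of the 187, and 34 and 23 of the 149, which is 40.6% and 38.3% called beside 39.2% over all members. Flanking genes with peaks of their own were found for 67 of the 90 members higher at 25 °C. In 25 of these 67 a peak of a flanking gene was also higher at 25 °C, in 11 a peak was higher at 11 °C, and in 33 none was called. For the 60 members higher at 11 °C, 38 had such genes, with a peak higher at 11 °C in 13, one higher at 25 °C in 6 and none called in 23. Among uncalled members, 154 had such genes, of which 44 and 32 had a peak higher at 25 °C and at 11 °C. In 84 of the uncalled members' cases none was called, and 79 had flanking genes without any peak, as had 23 of the members higher at 25 °C and 22 of those higher at 11 °C. Flanking genes with peaks had a median of 2 in each set, so these counts give several peaks a part. Of all 8069 single peaks 12.2% were called towards 25 °C and 10.0% towards 11 °C. Whether members and their flanking genes change together was not tested.

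Developmental transcription factor genes, the largest list, flanked 33 members through 28 of its 201 genes. Of the 33, 6 were higher at 25 °C and 8 at 11 °C, 42.4% called beside 39.2% over all members, with a median difference of 0.02 (log2), the same as over all members. The most changed towards 11 °C was a peak 1470 bp from bab1, which with its neighbour bab2 encodes BTB-domain factors that pattern the abdomen. It had 46.7 reads at 25 °C and 91.6 at 11 °C in the authors' deposited table (3L, 1102359 to 1102759, log2 fold change -0.87, FDR 3.81e-07), and a further peak 1005 bp beyond bab2 had -0.59 (FDR 6.34e-07) there. Towards 25 °C the leading member was a peak 15211 bp from ap, a LIM-homeobox gene of wing and neuron identity, with 51.0 and 27.1 reads (2R, 5742536 to 5742936, log2 fold change 0.76, FDR 0.000159 in the authors' deposited table). The nearest gene of that peak is l(2)09851, at 11781 bp. Among the other calls towards 11 °C, besides disco, Sox100B (-0.65), oc (-0.39) and toe (-0.28) were the nearest genes, while the peaks in gaps beside hb (-0.25) and Blimp-1 (-0.25) lay closer to Cks85A and Eaf6, by the authors' deposited table. Towards 25 °C klu (0.35) and salm (0.32) were the nearest genes, by the authors' deposited table. The peaks in gaps beside toy (0.62), ap (0.40) and dac (0.28) lay closer to fuss, l(2)09851 and Idgf3, by the authors' deposited table, and these calls were named after their values were seen. Members flanked by the homeobox gene Dr, by mirr and by vvl were not called, with 6 members in all at these 3 genes.

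Hormone genes were flanked by 9 members, 4 of them higher at 11 °C and 0 at 25 °C, with a median difference of -0.28 (log2). That is 44.4% called, beside 39.2% over all members and 22.2% over all peaks, and by direction 44.4% higher at 11 °C beside 15.7% of all members. At Jhbp1 and Jhbp2, genes named for binding juvenile hormone, all 3 members had more reads at 11 °C. The authors' deposited table gives 55.6 reads at 25 °C and 80.6 at 11 °C for the peak at chr3R:4962693-4963093 (log2 fold change -0.39, FDR 0.0130), 47.0 and 56.6 for the uncalled peak beside it (FDR 0.203), and 78.2 and 112 for that at chr3R:4970684-4971084 (-0.42, FDR 0.00733). Among ecdysone response genes, a peak 1645 bp from Eip78C, a nuclear receptor gene, had 74.5 and 110 reads in the authors' deposited table (-0.46, FDR 0.00294). A peak 20199 bp from Blimp-1, a zinc finger repressor gene, and 2484 bp from Eaf6 had -0.25 (FDR 0.00832) in the authors' deposited table, and those near Eip75B, Hr38 and shd were not called (FDR 0.600, 0.216 and 0.402). Nuclear receptor genes as a list flanked 3 members, those of Eip78C, Eip75B and Hr38. Of these 1 was called, or 33.3% beside 39.2% over all members. With 9 members the list is small, and apart from Eip78C the members here were named after their values were seen.

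Insulin and TOR genes flanked 7 members, with 2 called towards 25 °C and 0 towards 11 °C, which is 28.6% beside 39.2% over all members and 22.2% over all peaks. The peak 2382 bp from Myc, the growth-promoting transcription factor gene, had 242 reads at 25 °C and 110 at 11 °C in the authors' deposited table (X, 3370577 to 3370977, log2 fold change 0.94, FDR 9.34e-05). Of the 4 peaks at Myc or its neighbour lncRNA:CR46243, 1 was called, and higher at 11 °C. Between Akt, the insulin pathway kinase gene, and Sb, closer to the latter, a peak had 107 and 69.4 reads in the authors' deposited table (0.53, FDR 0.00104). All 3 members beside foxo, the transcription factor gene that insulin signalling inhibits, were uncalled, with FDRs of 0.0581, 0.218 and 0.913 in the authors' deposited table.

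Fat body, immune and metabolic genes had few intergenic peaks by these lists. The list of secreted fat body and yolk proteins had 3 members, all in the gap between CG43149 and Lsp1gamma as described, and none at Yp1, Yp2, Yp3 or apolpp. Humoral immunity genes flanked 4 members, near spz, PGRP-SA, BomT1 and the cecropin genes CecB and CecC, of which 0 were called, with a median difference of -0.01 (log2). Over all members 39.2% were called and over all peaks 22.2%, and lists this small say little beside those shares. The single member of the lipid list, 899 bp from LpR2, a lipophorin receptor gene, and 3 members by Cytochrome P450 genes were not called. Lists for the clock and for muscle had no member.

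Channel and receptor genes of neurons flanked 9 members, with 3 called towards 25 °C and 1 towards 11 °C, or 44.4% beside 39.2% over all members, and a median difference of 0.06 (log2). In this list the nAChRalpha7 peak was followed by 0.86 in the gap beside Ca-alpha1T, a calcium channel gene, and 0.82 in that beside ppk23, a pheromone-sensing channel gene, in the authors' deposited table. Both lay closer to their other flanking genes, CG32750 and CG43658, and were named after their values were seen. Neuronal adhesion genes flanked 4 members, 2 called towards 25 °C, at DIP-lambda and at kek5 (the nAChRalpha7 peak again), and 1 towards 11 °C. The last, 5720 bp from robo2, an axon guidance receptor gene, and 2301 bp from CG43401, had 201 reads at 25 °C and 299 at 11 °C there (-0.53, FDR 2.30e-05 in the authors' deposited table). Secreted signal genes flanked 5 members, 1 of them called, a peak 1125 bp from bnl, the FGF ligand gene that guides tracheal growth, with 205 and 151 reads (0.39, FDR 0.000787 in the authors' deposited table).

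Marker genes of other cell types flanked few members. Both members of the oenocyte list were higher at 25 °C, as were 23.5% of all members and 12.2% of all peaks. The peak 597 bp from FASN3, a fatty acid synthase gene of oenocytes, had 85.0 reads at 25 °C and 44.3 at 11 °C in the authors' deposited table (3L, 25752062 to 25752462, log2 fold change 0.82, FDR 5.72e-07), and the 1 peak of its flanking genes was higher at 25 °C as well. The other, shared by klu and Fad2, a desaturase gene, lies 1257 bp from klu and 13090 bp from Fad2 and had 0.35 in the authors' deposited table. The ovary list had 1 member, 32317 bp from AGO3, a piRNA pathway gene, with 19.9 and 11.8 reads (0.55, FDR 0.0149 in the authors' deposited table). The neuron list had the futsch peak given above, the gut and tracheal list the bnl peak, and the fat body and hemocyte lists shared an uncalled peak 531 bp from srp, a GATA factor gene. How far oenocytes or ovary contributed to these peaks was not tested.

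Peaks on both sides of the 500 bp limit are given here as a description. Just inside stood members at 505 bp from Atf3, 505 bp from sm and 506 bp from spri, where the authors' deposited table has -0.18, -0.11 and -0.60. Just outside were peaks at 499 bp from pira and 494 bp from Acbp2, with 0.04 and -0.11 in the authors' deposited table.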

How the data were processed

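ATAC-seq was made from dissected fat body in 16 libraries, 4 for each of 4 groups. The dm6 build and the tools DiffBind, MACS2, Bowtie2, Trim Galore, cutadapt, SAMtools, bedtools, Picard and FastQC are named per the submitters' processing notes. Versions, roles, peak merging, scaling, the transposase offset and the treatment of duplicates and of multiply mapped reads are not given in the sources used here. Multiply mapped reads bear on peaks in repeated DNA, and the scaling can shift all differences by a common factor.

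For the temperature comparison the authors' deposited table holds, per the file headers, log2 mean concentrations (all libraries used, 25 °C, 11 °C) and a log2 fold change from DiffBind for 8069 peaks. It also holds the deposited p-value and its FDR. The FDR was checked to be a Benjamini-Hochberg adjustment over all 8069 peaks. No value per library was analysed, so depth per library is unknown, no standard error is given and no model was refitted.

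Peaks were placed by their midpoints against 17807 genes of a RefSeq table (Release 6 plus ISO1 MT, on which dm6 is based), which lists gene starts and ends without strand, exons or sequence. Place, distance and flanking genes were computed with Python 3.11.15 and pandas 2.3.3, and figures drawn with matplotlib 3.10.9. Placement was tested on made-up positions and recovered for all 597 of them. The planned description of motifs needs the genome sequence and was not made. Of 885 entries in 19 gene lists, 845 matched a symbol, 27 a synonym and 13 no gene. The members and lists were chosen with earlier results of these data known. Named peaks are the 10 with the largest fitted change each way among those called, the 10 with the highest concentration, the 5 farthest from a gene, groups of 3 within 5000 bp, the most changed called peak each way per list, and peaks at the 500 bp limit, of which 1 is not reported here. Peaks named outside this rule are said to be so.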

Additional observations from a re-analysis of the deposited data

How the results depend on the processing

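The counts of 90 intergenic peaks higher at 25 °C and 60 at 11 °C, the share of 4.75%, the median concentration (90.2 reads) and the median difference of 0.02 (log2) were recomputed under other settings. Counts were within 1.5 times with an FDR under 0.01 or 0.1, a limit of 1000 bp, protein-coding genes alone, the whole peak outside genes, and chromosomes 2, 3 and X. The same held, for 2 alternatives chosen after seeing the data, without gaps over 50000 bp (69 and 57) and without concentrations under 3. Beyond 2000 bp they were 52 and 27, at 1.5-fold or more 54 and 29, and at 2-fold or more 19 and 7. With no distance asked they were 269 and 242. Without the lowest concentration quartile they were 31 and 41, the order turned, with a median concentration of 7.42 and a median difference of -0.065 (both log2). The share was 3.41% at 1000 bp, 2.42% at 2000 bp, 29.98% with no distance, 6.79% with protein-coding genes alone and 4.15% for whole peaks. The log2 median concentration was 6.22, 7.36 and 6.76 at 2000 bp, no distance and protein-coding genes, and the median difference -0.027 with no distance. The cause of these shifts was not tested, other than that each setting changes which peaks are members or are counted. Ranked by the plain difference, 9 of the 10 named peaks at 25 °C and 8 of the 10 at 11 °C were shared.

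No paired analysis was possible because the table holds no values per library, and for the same reason leaving out each replicate was not run. Depth per library is unknown, and for peaks of a few reads the fold changes rest on small numbers.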
